A study of Mus musculus with 18 samples.

Results

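Brown and white fat of mice that overexpress human FXR were set against each other here: 5 arrays of brown adipose tissue (FXR BAT 1 to 5) and 4 arrays of white adipose tissue (FXR WAT 1 to 4), taken by their titles, which are 9 of the 18 arrays of the series. The question was which differences between the tissues persist under the transgene and which are narrowed. RNA was hybridised to Affymetrix mouse gene arrays with 1 sample per array, 500 ng of total RNA each. The other 9 arrays, 5 of control BAT and 4 of control WAT, gave the same tissue difference without the transgene. FXR mice are labelled as overexpressors of human FXR specific to adipose tissue, and control mice as wild type. Both groups were male C57BL/6J mice of 10 weeks on chow; for control BAT 2 and 4 alone, 6 weeks of feeding are mentioned with the extraction. The labels name neither the promoter driving the transgene nor the white depot, and they do not say if one mouse gave both tissues. Samples of a group are described as biological replicates without a named source animal, so the p-values rest on the spread between labelled samples.

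FXR, the farnesoid X receptor, is a nuclear receptor that binds bile acids and controls bile acid and lipid genes in liver and intestine. Brown adipocytes hold many mitochondria and burn fatty acids to make heat through the uncoupling protein UCP1, while white adipocytes hold a single large lipid droplet, store triglyceride and secrete hormones such as leptin. Both tissues also hold progenitors, macrophages and vessels, and visceral white fat is covered by mesothelium. In bulk samples such as these, fewer cells of a type and less RNA per cell cannot be told apart.

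All levels below are log2(intensity + 1) after the 18 arrays were brought to 1 distribution by quantile normalization, and a tissue difference is BAT minus WAT in log2 units, with its standard error (SE). This step matters because the deposited medians were 97.6 to 99.9 in FXR BAT and 60.5 to 61.5 in FXR WAT. Probe sets within 1.5 times of the dimmest 1% made up 29.8% to 32.4% of an FXR BAT array and 58.2% to 62.8% of an FXR WAT array. A gene at that floor in WAT has only a compressed difference. Across genes, arrays correlated with r of 0.972 to 0.994 within FXR BAT, 0.978 to 0.992 within FXR WAT and 0.853 to 0.891 between them. Some arrays stood apart. The mean level of 29 skeletal muscle genes was 10.12, 9.50 and 10.11 on FXR BAT 1, 2 and 4, against 6.66 and 7.95 on FXR BAT 3 and 5, 6.59 to 8.08 in control BAT and 6.39 to 6.46 in FXR WAT. The mean of 18 epididymis and male tract genes was 6.73 on FXR WAT 1 and 6.00 to 6.16 on FXR WAT 2 to 4. The part of this muscle and male tract RNA in the results was not tested, and calls of named genes that change without FXR BAT 1, 2 and 4 are given beside their results. That fit keeps only FXR BAT 3 and 5 as brown FXR arrays. Loss of a call through fewer arrays and through less muscle RNA cannot be told apart there.

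Ucp1 and Lep, well known markers of brown and white fat, kept their side under the transgene. Brown differences were smaller than in controls for some markers, as described below. The FXR difference minus the control difference was -0.54 for Ucp1, -1.93 for Dio2 and -2.44 for Elovl3. Ucp1 read 12.42, 12.50, 12.24, 12.34 and 12.42 on FXR BAT 1 to 5, and 6.02, 6.47, 6.21 and 6.19 on FXR WAT 1 to 4. The 2 groups did not overlap, and all 4 WAT arrays were at the floor. The difference was 6.16 ± 0.09 (SE, n = 5 and 4; limma, Benjamini-Hochberg adjusted p = 6.78e-11), a 71.8-fold excess that the floor compresses. Lep, the gene of leptin, read 8.12, 6.75, 6.95, 6.83 and 7.40 in FXR BAT and 11.47, 10.90, 11.38 and 11.23 in FXR WAT. FXR BAT 1 was the highest of the brown samples and still lay below every white one, and the difference was -4.03 ± 0.26 (adjusted p = 6.09e-07, limma). Adipoq, the gene of adiponectin and a product of both kinds of adipocyte, differed by only -0.32 ± 0.07 (adjusted p = 0.00348, limma), by -0.22 without FXR BAT 1, 2 and 4 (adjusted p = 0.095), and was higher in BAT by 0.40 relative to the median gene. Mouse Nr1h4, which encodes FXR, was dim, with means of 6.06 in FXR BAT and 6.36 in FXR WAT. Its difference was -0.30 ± 0.06 (adjusted p = 0.00277, limma), close to -0.25 in controls, and a mouse probe set checks a human transgene only indirectly. The FXR target Nr0b2, encoding the repressor SHP, differed by -0.15 ± 0.06 (adjusted p = 0.0456, limma), and 8 of the 9 fits that each left out 1 of the FXR arrays did not keep this call (adjusted p of up to 0.0878), nor did the fit without FXR BAT 1, 2 and 4 (-0.17, adjusted p = 0.172).

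Of 19937 genes, 11042 (55.4%) differed between FXR BAT and FXR WAT at an adjusted p of 0.05, 4260 (21.4%) with more RNA in BAT and 6782 (34%) with more in WAT. A share of 38.6% of the called genes was thus higher in BAT, which became 39.7% relative to the median gene and 98.7% on the values as deposited, so directions of small differences rest on the scaling. At least 2-fold differences numbered 644 toward BAT and 689 toward WAT, and 23 and 19 genes reached 8-fold. Arrays of the 2 tissues did not overlap for 9801 genes (49.2%), 3678 higher in BAT (18.4%) and 6123 higher in WAT (30.7%). The same test in control mice, which share no array with FXR mice, called 11580 genes, 4734 (23.7%) toward BAT and 6846 (34.3%) toward WAT. Both lists had 9089 genes in common with the same direction, which is 82.3% of the FXR list and 78.5% of the control list, and 43 genes were called in opposite directions. For 8552 of the shared genes the difference did not itself change between genotypes at the threshold.

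**Figure D1:**
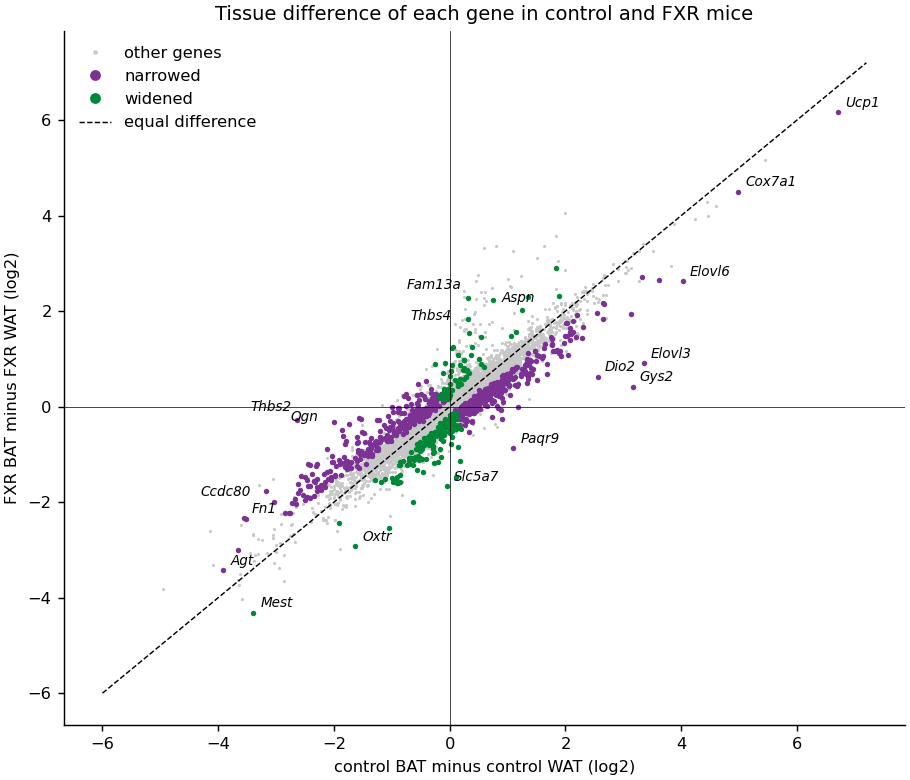
Each point is 1 of 19937 genes, with its BAT minus WAT difference in control mice on the x axis and in FXR mice on the y axis (log2 units). Points on the dashed line differ equally in both genotypes. The 623 narrowed genes (purple) lie nearer to 0 than the line or across 0, and widened genes that are not also narrowed (green) lie farther from 0. Gys2 (0.42), Dio2 (0.63) and Thbs2 (-0.28) lie near 0 on the y axis, and Ucp1 (6.16 against 6.71) close to the line.

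Across genes the 2 tissue differences correlated with r = 0.929, a description over genes that are not independent replicates. Among 1506 genes with a called control difference of at least 2-fold, 1503 kept their direction in FXR mice, and the median gene had 88.9% of its control difference. Choosing instead the 1333 genes with a called FXR difference of at least 2-fold, the median control difference was 103% of the FXR one. Each percentage is read on the genes chosen by its own base, so both are given.

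The largest brown excess in FXR mice was that of Ucp1. Next came Cidea, a lipid droplet protein of brown adipocytes, with 11.42, 11.53, 11.71, 11.43 and 11.58 in FXR BAT and 6.26, 6.39, 6.50 and 6.36 in FXR WAT. No arrays overlapped, and the difference was 5.15 ± 0.07 (35.6-fold, adjusted p = 6.1e-11, limma) against 5.44 in controls. Cox7a1, the heart and brown fat form of a cytochrome oxidase subunit, read 11.18, 11.14, 11.12, 11.18 and 11.12 in FXR BAT and 6.55, 6.68, 6.74 and 6.62 in FXR WAT. It was the tightest of the large differences, at 4.50 ± 0.04 (22.7-fold, adjusted p = 3.96e-12, limma). After these stood Pdhb, a subunit of pyruvate dehydrogenase (4.28 ± 0.10), Fabp3, the heart fatty acid-binding protein (4.20 ± 0.13), Cox8b, another tissue-specific oxidase subunit (3.98 ± 0.09), and Pank1, which starts coenzyme A synthesis (3.92 ± 0.13). Another probe set of Fabp3 gave 1.63. Atp2a1, the calcium pump of fast muscle, also stood among the top 8 with 4.06 ± 0.91, but it read 11.74, 11.48, 6.82, 11.74 and 9.77 on FXR BAT 1 to 5, in the order of the muscle list, and its difference without FXR BAT 1, 2 and 4 was 2.04.

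The largest white excesses were those of Mest and Lep. Mest, an imprinted gene that marks expanding white fat, read 7.63, 6.73, 6.56, 7.44 and 6.89 in FXR BAT and 11.41, 11.41, 11.49 and 11.14 in FXR WAT. The groups were far apart, by -4.31 ± 0.21 (19.9-fold, adjusted p = 8.22e-08, limma). Upk3b, a mesothelial membrane protein, read 6.19, 6.19, 6.16, 6.17 and 6.23 in FXR BAT and 9.76, 10.09, 10.05 and 9.78 in FXR WAT. It was at the floor on each FXR BAT array and differed by -3.73 ± 0.07 (adjusted p = 3.39e-10, limma), next to -3.63 in controls. Retn, the gene of resistin, read 8.90, 9.37, 7.61, 8.30 and 8.00 in FXR BAT and 11.94, 12.28, 12.04 and 12.03 in FXR WAT. The brown samples were scattered and the white ones were not, and the difference was -3.63 ± 0.31 (adjusted p = 3.85e-06, limma). The other large white excesses were those of Nnat, an imprinted proteolipid gene (-3.82 ± 0.25), Col6a5, a collagen VI chain (-3.65 ± 0.13), the protease inhibitor Serpina3n (-3.50 ± 0.26) and Agt, which encodes angiotensinogen (-3.43 ± 0.06).

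**Figure D2:**
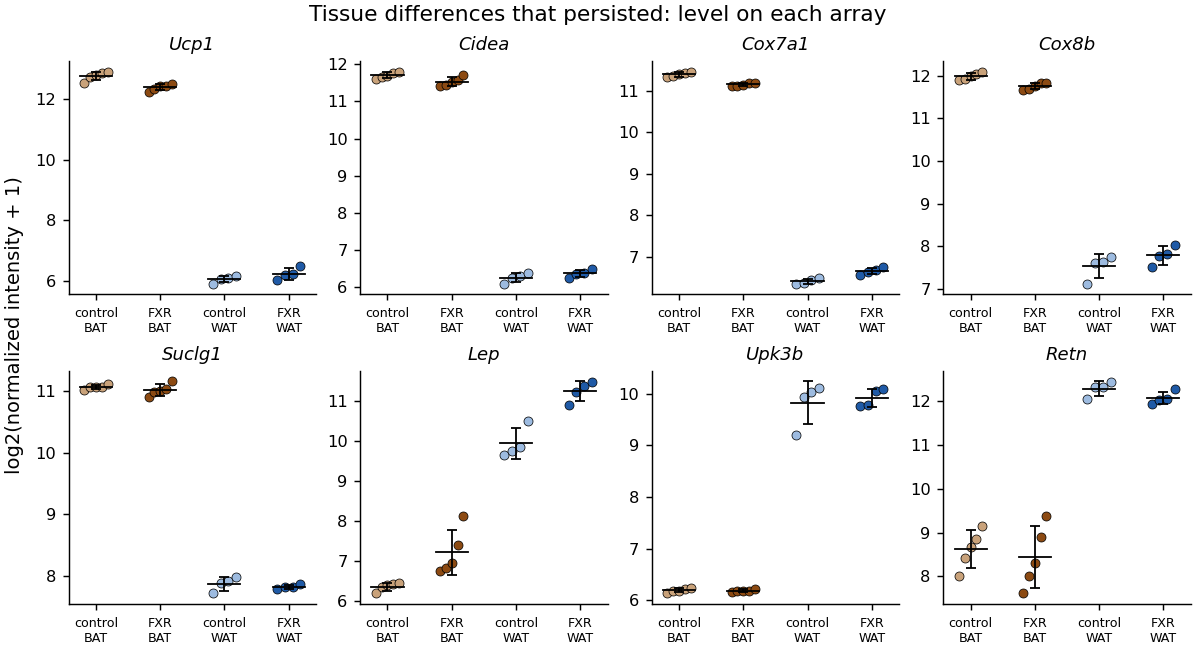
Levels on each array (points), group means (lines) and SD (error bars) of 8 genes in control and FXR BAT and WAT, as log2(normalized intensity + 1); each panel has its own y axis, which does not start at 0. Ucp1, Cidea, Cox7a1, Cox8b and Suclg1 were high in both groups of BAT, and Lep, Upk3b and Retn in both groups of WAT. FXR WAT read 10.90 to 11.47 for Lep, above all 4 control WAT arrays (9.66 to 10.50).

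Some differences were nearly the same in both genotypes. Among genes with differences of at least 4-fold in each, the smallest gap between genotypes belonged to Suclg1, a subunit of succinyl-CoA ligase in the citric acid cycle. Suclg1 read 10.90, 11.04, 11.16, 10.98 and 11.00 in FXR BAT and 7.79, 7.82, 7.86 and 7.81 in FXR WAT. Its difference of 3.19 ± 0.05 was matched by 3.19 in controls, and the 95% interval of the gap ran from -0.15 to 0.15. Apool, a protein of the inner mitochondrial membrane (2.16 against 2.15), Ndufa3, a complex I subunit (2.18 against 2.18), and Atg4a, an autophagy protease (2.44 against 2.43), followed on the brown side. Another probe set of Atg4a gave 0.69 in FXR mice. On the white side stood Mfge8, a secreted glycoprotein (-2.06 against -2.07), Pdpn, a membrane glycoprotein of mesothelium and lymphatic vessels (-2.07 against -2.08), Gpm6a (-2.42 against -2.39) and Retn (-3.63 against -3.66). The widest of these intervals was that of Retn, from -0.78 to 0.84, which leaves room for a change of Retn in either direction.

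Whether a difference itself changed was tested over all 18 arrays as the FXR difference minus the control difference, called the gap here. The gap passed for 874 genes (4.38%), 348 upward and 526 downward. A difference was counted as narrowed where the control difference and the gap both passed and had opposite signs. Control arrays enter both terms, so the 623 narrowed genes (3.12%) are a description of the pattern and not a second test. Narrowed genes comprised 337 that were BAT-high and 286 that were WAT-high in controls. Relative to the median gene this split moved to 1396 against 197, with 13.1% of called gaps upward instead of 39.8% (31.4% as deposited). Of the 623 genes, 497 kept a called gap of the same sign in that scaling and 360 were again narrowed without FXR BAT 1, 2 and 4. With a control difference of at least 2-fold, 102 of 717 BAT-high genes (14.2%) and 144 of 789 WAT-high genes (18.3%) narrowed, to a median of 65.6% and 64.2% of the control difference. Of these, 85 of 102 and 104 of 144 had the larger genotype change in BAT. The same count was not taken over all genes. At the floor were 8998 genes on all FXR WAT arrays and 3897 on all FXR BAT arrays. Changes in WAT are thus compressed more often, and this count does not compare the tissues on equal terms. A further count is of direction: 42 narrowed genes were called in the opposite direction in FXR mice, and 2 of them, Paqr9 and Pcsk6, with a gap of at least 1 log2 unit.

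On the BAT-high side the most narrowed genes were Gys2, Elovl3, Paqr9 and Dio2. Gys2, the liver form of glycogen synthase, read 8.54, 8.74, 7.32, 8.83 and 8.27 in FXR BAT and 7.79, 8.44, 7.42 and 8.04 in FXR WAT. The 2 tissues overlapped, whereas control BAT (9.57 to 10.43) and control WAT (6.52 to 6.89) were far apart. The difference was 0.42 ± 0.31 in FXR mice (adjusted p = 0.27, limma) and 3.16 ± 0.15 in controls, a gap of -2.74 (95% interval -3.51 to -1.98, adjusted p = 0.000424, limma). Both tissues moved toward each other, by -1.51 in BAT and 1.23 in WAT. The gap was -3.29 without FXR BAT 1, 2 and 4. Elovl3, the elongase that brown fat induces in the cold, read 7.46, 8.14, 6.21, 7.40 and 6.94 in FXR BAT and 6.28, 6.54, 6.12 and 6.33 in FXR WAT. FXR BAT 3, the brown array lowest in muscle RNA, lay within the white range. The difference was 0.91 ± 0.31 (adjusted p = 0.0307, limma) against 3.35 in controls, a gap of -2.44 (adjusted p = 0.00159, limma). The call in FXR mice was lost in 5 of 9 fits that left out 1 array and without FXR BAT 1, 2 and 4 (0.26, adjusted p = 0.341), where the gap was -3.10.

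Dio2, the deiodinase that activates thyroid hormone in brown fat, read 6.68, 6.67, 6.45, 7.13 and 6.63 in FXR BAT and 6.10, 6.12, 6.05 and 6.06 in FXR WAT. The tissues did not overlap, but they were much closer than in controls (7.85 to 9.16 in BAT, 6.07 to 6.17 in WAT). The difference was 0.63 ± 0.11 (adjusted p = 0.000766, limma) against 2.56, a gap of -1.93 (95% interval -2.49 to -1.37, adjusted p = 0.000592, limma). The change in BAT was -1.97. WAT was at the floor in both genotypes, so a fall of Dio2 in WAT could not be read. Paqr9, a receptor of the progestin and adiponectin family, changed sides. It read 8.50, 8.48, 7.84, 8.55 and 8.53 in FXR BAT and 9.80, 9.59, 8.74 and 8.87 in FXR WAT, so each white array was higher. The difference was -0.87 ± 0.23 (adjusted p = 0.00979, limma) in FXR mice and 1.10 ± 0.13 in controls, a gap of -1.97 (adjusted p = 0.000945, limma). Its difference in FXR mice was -0.26 relative to the median gene and did not pass (adjusted p = 0.287, limma).

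Elovl6, which elongates palmitate in fatty acid synthesis, kept a large brown excess of 2.63 ± 0.22, with 10.87 to 11.48 in FXR BAT and 8.19 to 9.24 in FXR WAT. The gap of -1.40 (adjusted p = 0.0133, limma) lay mostly on the white side, where FXR mice exceeded controls by 1.05. Acsl5, an acyl-CoA synthetase, also kept its brown excess, 1.95 ± 0.19 against 3.13, with a gap of -1.18 (adjusted p = 0.00427, limma) that lay in BAT (-1.16). Septin9, a cytoskeletal GTPase, lost its brown excess (-0.02 against 1.17, gap -1.19), although it stood at 0.55 relative to the median gene. Pde7b, a cAMP phosphodiesterase, went from 1.69 to 0.69.

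On the WAT-high side the most narrowed gene was Thbs2. Thbs2, the matricellular protein thrombospondin 2, read 7.66, 7.95, 7.68, 7.55 and 7.69 in FXR BAT and 7.96, 7.59, 8.50 and 7.87 in FXR WAT. The tissues overlapped, while control BAT (6.31 to 6.60) lay below control WAT (8.61 to 9.53). The difference was -0.28 ± 0.16 (adjusted p = 0.158, limma) against -2.64, a gap of 2.36 (95% interval 1.82 to 2.89, adjusted p = 9.48e-05, limma), with 1.25 in BAT and -1.11 in WAT. Ogn, the small proteoglycan osteoglycin, read 8.60, 8.38, 8.93, 8.51 and 8.66 in FXR BAT and 8.83, 9.01, 9.09 and 8.86 in FXR WAT. One brown array, FXR BAT 3, reached into the white range. The difference was -0.33 ± 0.10 (adjusted p = 0.0196, limma) against -2.00, a gap of 1.67 (adjusted p = 0.000156, limma) that lay in BAT (1.73). Without FXR WAT 2 or 3 this residual white excess was -0.31 or -0.28 and did not pass, without FXR BAT 1, 2 and 4 it was -0.15 (adjusted p = 0.284, limma), and relative to the median gene it was 0.27 toward BAT.

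Ccdc80, a secreted protein of white adipocytes and fibroblasts, read 10.28, 10.01, 9.64, 10.02 and 10.09 in FXR BAT and 11.50, 11.77, 11.91 and 11.91 in FXR WAT. It stayed clearly white, at -1.77 ± 0.12 (adjusted p = 1.1e-06, limma), but closer than the -3.18 of controls, with a gap of 1.41 (adjusted p = 0.000167, limma). The dermatopontin gene Dpt (-0.36 against -1.73), the complement inhibitor gene Serping1 (-0.49 against -1.86) and the fibril-associated collagen gene Col14a1 (-0.23 against -1.57) followed, with gaps of 1.38, 1.37 and 1.34. Plxdc2 (gap 1.27) and the microfibril gene Mfap5 (gap 1.24) completed the top 8. Relative to the median gene, Dpt, Serping1, Col14a1 and Plxdc2 were higher in FXR BAT than in FXR WAT (0.33, 0.20, 0.37 and 0.30), while their gaps remained upward (1.15, 1.15, 1.34 and 1.22). The difference of Mfap5 in FXR mice, -0.88, was -0.24 in that scaling and did not pass (adjusted p = 0.0501, limma). Without FXR BAT 1, 2 and 4, the gaps of Serping1 (1.20) and Col14a1 (1.29) had adjusted p of 0.0532 and 0.0516 (limma). The call of the residual difference of Plxdc2 in FXR mice, -0.25, was lost in 6 of 9 fits that left out 1 array (highest adjusted p = 0.113, limma) and without FXR BAT 1, 2 and 4 (-0.08). That of Dpt was kept in all 9 of these fits, but lost without FXR BAT 1, 2 and 4 (-0.37, adjusted p = 0.0534, limma).

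**Figure D3:**
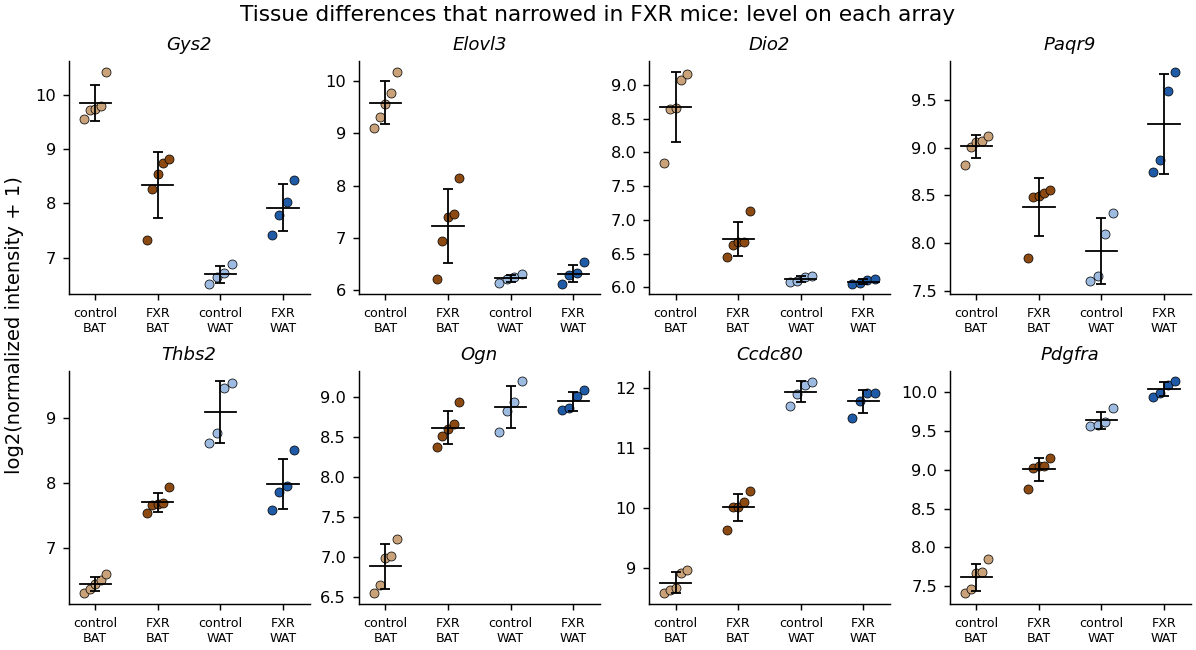
Levels on each array (points), group means (lines) and SD (error bars) of 8 narrowed genes, as log2(normalized intensity + 1); each panel has its own y axis, which does not start at 0. For Gys2 both tissues of FXR mice lay between the control tissues, for Elovl3 and Dio2 the 5 FXR BAT arrays lay below all control BAT arrays, and Paqr9 was higher in FXR WAT than in FXR BAT. For Thbs2, Ogn, Ccdc80 and Pdgfra the 5 FXR BAT arrays lay above all control BAT arrays.

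Promoters of the most narrowed genes are shown to set the 2 directions side by side, as the reference tables (RefSeq, GRCm38.p6) give them, 250 bases before the start to 50 after it. The 2 largest narrowed genes of each direction with an entry are printed; Gys2, Elovl3 and Paqr9 are named only. The sequences are Dio2 (chr12:90738989-90739288, minus strand), Elovl6 (chr3:129532136-129532435, plus strand), Thbs2 (chr17:14694213-14694512, minus strand) and Ogn (chr13:49607765-49608064, plus strand). Capitals mark AGGTCA, the half-site of many nuclear receptors, on either strand, or TGACGTCA, the cAMP response element.
Dio2: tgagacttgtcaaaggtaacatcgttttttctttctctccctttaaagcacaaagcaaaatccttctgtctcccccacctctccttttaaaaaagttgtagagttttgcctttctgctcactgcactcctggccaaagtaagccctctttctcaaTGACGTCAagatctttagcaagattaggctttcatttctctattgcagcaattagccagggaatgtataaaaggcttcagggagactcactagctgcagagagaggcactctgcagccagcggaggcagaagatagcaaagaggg
Elovl6: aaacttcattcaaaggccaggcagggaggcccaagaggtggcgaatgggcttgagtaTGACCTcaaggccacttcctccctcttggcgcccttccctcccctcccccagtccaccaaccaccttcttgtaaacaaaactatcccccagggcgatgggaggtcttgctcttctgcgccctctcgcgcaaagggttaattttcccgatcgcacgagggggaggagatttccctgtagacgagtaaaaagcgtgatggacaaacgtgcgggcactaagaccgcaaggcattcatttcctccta
Thbs2: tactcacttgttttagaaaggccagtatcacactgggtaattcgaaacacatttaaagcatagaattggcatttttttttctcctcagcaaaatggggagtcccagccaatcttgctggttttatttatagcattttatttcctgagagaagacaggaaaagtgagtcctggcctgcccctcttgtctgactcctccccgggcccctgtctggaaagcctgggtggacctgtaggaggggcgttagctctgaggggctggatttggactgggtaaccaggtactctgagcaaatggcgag
Ogn: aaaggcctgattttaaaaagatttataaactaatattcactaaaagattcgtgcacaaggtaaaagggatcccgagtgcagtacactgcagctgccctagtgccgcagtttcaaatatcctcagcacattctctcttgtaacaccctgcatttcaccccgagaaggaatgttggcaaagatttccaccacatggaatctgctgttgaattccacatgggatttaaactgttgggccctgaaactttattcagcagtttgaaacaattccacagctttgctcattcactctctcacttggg
TGACGTCA, which was searched after the sequences were seen, occurred 95 bases before the start of Dio2, and AGGTCA on the opposite strand 193 bases before the start of Elovl6. Neither motif was in the windows of Thbs2 and Ogn. Of 32851 promoter windows of this length, 16.3% held AGGTCA and 1.79% held TGACGTCA, and the inverted repeat of AGGTCA with 1 spacer base, the form that FXR binds, stood in 3. AGGTCA was found in 13.9% of the first promoters of all tested genes with an entry. The share was 16.7% for narrowed BAT-high, 8.92% for narrowed WAT-high (19 of 213) and 16.3% for widened genes, and these shares were not tested. The inverted repeat contains AGGTCA, so each of its matches is also a match of AGGTCA. A match is a description of letters.

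Grouped by function, the brown thermogenic effectors mostly kept their side, and 7 of 20 narrowed. Of 20 measured members, 19 were called higher in FXR BAT (21.4% of all genes). Only 1, the mitochondrial creatine kinase Ckmt1 (-0.37), was called higher in FXR WAT (34% of all genes). The median difference of the 20 members was 2.49 against 3.16 in controls, beside -0.05 and -0.04 over all genes. Gaps passed downward for 7 members, against 2.64% of all genes, and upward for 0. Besides Dio2 and Elovl3, these were Otop1, a proton channel (2.65 against 3.62, gap -0.97), Kcnk3, a potassium channel (gap -0.74), Letm1, a mitochondrial ion exchanger (gap -0.61), Ucp1 (gap -0.54, adjusted p = 0.0153, limma) and Cox7a1 (gap -0.48, adjusted p = 0.000156, limma). Kcnk3, Letm1 and Ckmt1 were picked out after their values were seen. Relative to the median gene 14 of the 20 gaps passed downward, and without FXR BAT 1, 2 and 4 it was 8. Of all 19937 genes, 1872 had a called gap relative to the median gene, 13.1% of them upward. Cidea (gap -0.29, adjusted p = 0.0993, limma) and Cox8b (gap -0.49, adjusted p = 0.0795) did not pass, but did relative to the median gene (-0.50 and -0.70). Of 23 brown fat transcription regulators, 15 were higher in FXR BAT and 4 (Epsti1, Foxc2, Zfp516 and Ehmt1) in FXR WAT, beside 21.4% and 34% of all genes. Their medians were 0.52 against 0.39. Ppargc1a, a coactivator of mitochondrial genes, was 1.49 against 2.04 (gap -0.55, adjusted p = 0.0243, limma), and Prdm16, a brown fate regulator, 0.60 against 1.02 (gap -0.43, adjusted p = 0.0236). Without FXR BAT 1, 2 and 4 these gaps were -0.53 and -0.31 and did not pass, and that of Prdm16 also missed without control WAT 4 (-0.39, adjusted p = 0.0503, limma). Over the 23 regulators, gaps passed upward for 2 and downward for 0 without FXR BAT 1, 2 and 4, against 0 and 2 with all arrays. Relative to the median gene it was 0 and 4. With all arrays after quantile normalization, 1.75% of all genes had an upward and 2.64% a downward call. The orphan receptors Esrra (0.79 against 1.00) and Esrrg (1.43 against 1.58) had no called gap after quantile normalization. Relative to the median gene the gap of Esrra was -0.39 and passed (adjusted p = 0.0101, limma), and that of Esrrg was -0.23 and did not.

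Genes of mitochondrial fuel use were mostly brown in both genotypes, and how far their margins changed depended on the scaling. Of 38 subunits of the respiratory complexes, 37 were higher in FXR BAT, with a median of 1.56 against 1.60 in controls. Beside this and the next lists, 21.4% of all genes were called higher in FXR BAT and 34% in FXR WAT. The exception, Atp5g1 (-0.44), was singled out after its value was seen; it did not pass, but it was called higher in FXR WAT without FXR BAT 1, 2 and 4 (-0.94, adjusted p = 0.000222, limma). Examples are Sdhb of complex II (2.10 against 1.85), Cox7b of complex IV (2.74 against 2.68) and Uqcrc2 of complex III (2.31 against 1.89). Uqcrc2 (gap 0.41, adjusted p = 0.000405, limma) and Atp5c1 of the ATP synthase (gap 0.34, adjusted p = 0.00701) had the only 2 called gaps of this list. Both widened, and 2 of 38 is near the 4.38% of all genes with a called gap. Relative to the median gene their gaps were 0.06 and 0.00, and 7 gaps of the list passed downward, so the direction of change in this list depends on the scaling. In that scaling 1872 of all 19937 genes had a called gap, 13.1% of them upward. The gap of Atp5c1 was 0.28 without FXR BAT 1, 2 and 4 and did not pass (adjusted p = 0.0554, limma). Among 12 members of cytochrome oxidase isoform pairs, 9 were brown and 1, Cox4i2, white. Of the tissue-specific forms, Cox7a1 had a called gap and Cox8b did not, while the gaps of their widely expressed partners Cox7a2 (2.12 against 2.18) and Cox8a (1.14 against 1.10) were within -0.21 to 0.07 and -0.19 to 0.28 at 95% confidence. Of 24 genes of the citric acid cycle and pyruvate dehydrogenase, 22 were brown and 2 white, the phosphatase Pdp1 (-0.60) and pyruvate carboxylase Pcx (-0.76), both named after their values were seen and not passing relative to the median gene (-0.09 and -0.03). Their median was 1.88 against 1.75, with 0 called gaps (limma) and with Idh3b (1.88) and Idh3g (2.43), subunits of isocitrate dehydrogenase, as examples; relative to the median gene 8 gaps passed downward.

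Of 23 fatty acid oxidation genes, 21 were higher in FXR BAT, with a median of 1.59 against 1.51. Among all genes 21.4% were called higher in FXR BAT and 34% in FXR WAT. Gaps passed upward for 1 and downward for 0, beside 1.75% and 2.64% of all genes, but for 0 and 6 relative to the median gene. In that scaling 1872 of all 19937 genes had a called gap, 13.1% of them upward. The subunits of the trifunctional protein, Hadha (2.48) and Hadhb (2.43), and the dehydrogenase Acadvl (2.58) stood beside 2.46, 2.35 and 2.47 in controls. The exception was Cpt1a, the liver isoform of carnitine palmitoyltransferase, which was white in both genotypes (-1.56 against -1.60) and was singled out after its value was seen. Etfb, which passes electrons from these dehydrogenases on, widened (gap 0.41, adjusted p = 0.0233, limma), but its gap was 0.08 relative to the median gene. Breakdown of branched-chain amino acids had 20 measured genes, of which 16 were brown and 2, the aminotransferases Bcat1 and Bcat2, white. Mcee, of the propionate route, narrowed from 1.36 to 0.88 (adjusted p = 0.000796, limma), and Aldh6a1, a dehydrogenase of valine breakdown, went from -0.43 to 0.17 (adjusted p = 0.0153). The gap of Aldh6a1 did not pass relative to the median gene (0.24), and its FXR difference passed there (0.87) and without FXR BAT 1, 2 and 4 (0.39, adjusted p = 0.0235, limma).

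Lipid and glucose genes were mixed, beside 21.4% of all genes called higher in FXR BAT and 34% in FXR WAT. A gap was called for 4.38% of all genes. De novo lipogenesis had 11 of 20 members higher in FXR BAT, against 15 in control BAT, and 2 desaturases higher in FXR WAT, Fads1 (-1.51) and Fads2 (-1.56), both named after their values were seen; the call of Fads2 was lost without FXR BAT 1, 2 and 4 (adjusted p = 0.0612, limma). The median was 0.59, against 1.02 in controls. Acacb, the acetyl-CoA carboxylase at mitochondria, was 2.41 against 2.34, the transketolase Tkt 2.26 against 2.53, and the glucose-sensing factor Mlxipl 1.19 against 1.09. Gaps were called only for Elovl6 and for the sterol sensor Insig1 (gap -0.96, adjusted p = 0.0292, limma), which lost its call in 5 of 18 fits that left out 1 array and without FXR BAT 1, 2 and 4 (adjusted p = 0.0521). Of 22 genes of glycogen and glucose use, 16 were brown and 4 (Pygb, Slc2a1, Hk1 and Ldha) white. Brown members included Pgk1 (2.32) and Ldhb (2.34) of glycolysis and the glycogen branching enzyme Gbe1 (1.72). Next to Gys2, the glycogen-targeting phosphatase subunit Ppp1r3b narrowed from 1.90 to 1.14 (gap -0.76, adjusted p = 0.000461, limma), as did Pfkl. Pygb, a glycogen phosphorylase picked after its value was seen, narrowed from the white side (gap 0.75, adjusted p = 0.0276, limma), with the call lost in 5 of 18 fits that left out 1 array and relative to the median gene (0.46, adjusted p = 0.16).

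Of 21 genes of glycerol and triglyceride turnover, 7 were called higher in FXR BAT and 8 in FXR WAT, beside 21.4% and 34% of all genes. Relative to the median gene it was 13 and 5. Gaps passed for 2 of the 21, Agpat3 and Dgat2, beside 4.38% of all genes. Plin5, which ties lipid droplets to mitochondria, was brown (1.80), and the lipase Mgll (-1.30) and the droplet protein Cidec (-1.71) were white. Agpat3, of glycerolipid synthesis, narrowed (gap -0.53, adjusted p = 0.00995, limma), a call lost without FXR BAT 1, 2 and 4 (-0.43, adjusted p = 0.0664). Dgat2, which makes triglyceride, was at 0.01 in controls and -0.54 in FXR mice, with a call of the gap that was lost in 12 of 18 fits that left out 1 array and without FXR BAT 1, 2 and 4 (-0.46), and with a difference of 0.04 relative to the median gene. Pan-adipocyte genes, 20 measured, split into 7 brown and 10 white, or 13 and 4 relative to the median gene. Pparg, the master regulator of adipocytes, was brown (1.37 against 1.22), with a gap of 0.14 that did not pass and of 0.35 that did without FXR BAT 1, 2 and 4 (adjusted p = 0.0294, limma). Lgals12, a galectin of lipid droplets, narrowed from -1.60 to -0.77 (adjusted p = 0.0115, limma), and Gpd1, of glycerol phosphate synthesis, from 1.89 to 1.12 (adjusted p = 0.0241); the latter missed without control WAT 2 (adjusted p = 0.0537) and without FXR BAT 1, 2 and 4 (adjusted p = 0.0592). The gap of Lgals12 was 0.50 relative to the median gene and did not pass (adjusted p = 0.111, limma).

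Of 17 genes of beta-adrenergic and cAMP signalling, 8 were brown and 3 (Adcy5, Gnai1 and Creb1) white, beside 21.4% and 34% of all genes. Gaps passed downward for 2, Adcy3 and Pde4d, beside 2.64% of all genes. Adcy3, the adenylyl cyclase of brown fat, narrowed from 1.93 to 1.06 (gap -0.87, adjusted p = 0.0155, limma), while Adcy5 stayed at -2.25 against -2.32. Prkar2b, a regulatory subunit of protein kinase A, was 1.60 against 1.89, without a called gap. Relative to the median gene its gap was -0.61 and passed (adjusted p = 0.0241, limma). The phosphodiesterase Pde4d narrowed from 1.64 to 1.23 (adjusted p = 0.0271, limma), a call lost in 3 of 18 fits that left out 1 array; other probe sets of Pde4d gave 0.34 and 1.37 in FXR mice. Without FXR BAT 1, 2 and 4 the gap of Adcy3 was -0.70 and did not pass (adjusted p = 0.0975, limma).

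White-selective adipocyte genes mostly kept their side. Of 23 measured, 20 were higher in FXR WAT and 2, Hoxa5 (0.86) and Fam13a, in FXR BAT, beside 34% and 21.4% of all genes. The medians were -1.77 against -2.34. Hoxc8, a posterior homeobox gene, was -3.09 against -3.31 and Wt1, a factor of mesothelial and visceral fat lineages, -1.44 against -1.28. Gaps passed upward for Agt, Ccdc80, Igf1 and Fam13a, and downward for Mest and Oxtr, beside 1.75% and 2.64% of all genes. Igf1, a growth factor, went from -2.34 to -1.55 (adjusted p = 0.00765, limma) and, with Hoxa5, was named after its value was seen. The gap of Agt was 0.48 (adjusted p = 0.0232, limma) and 0.41 without FXR BAT 1, 2 and 4 (adjusted p = 0.118). The gap of Mest, -0.92 (adjusted p = 0.0352, limma), widened its white excess, but 13 of 18 fits that left out 1 array did not keep the call, with adjusted p of up to 0.0669.

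Extracellular matrix genes, the longest list, held 15 narrowed differences among 43, beside 8 of 21 for progenitor genes and 7 of 20 for thermogenic effectors. Of 43 measured, 34 were higher in FXR WAT and 3 (Col8a1, Col12a1 and Tnc) in FXR BAT, beside 34% and 21.4% of all genes. The median of the 43 was -1.02 against -1.52 in controls. Gaps passed upward for 16 members and downward for 0, beside 1.75% and 2.64% of all genes. Fn1, the gene of fibronectin, read 9.28, 9.34, 9.14, 9.28 and 9.37 in FXR BAT and 11.44, 11.44, 11.82 and 11.75 in FXR WAT. FXR BAT stayed below FXR WAT by -2.33 ± 0.09, yet all 5 arrays exceeded control BAT (7.42 to 8.22), and the gap was 1.21 (adjusted p = 0.00223, limma). Col3a1, the chain of collagen III, went from -2.44 to -1.20 (gap 1.24, adjusted p = 0.0117, limma; 0.92 with adjusted p = 0.058 relative to the median gene). Col15a1 (-2.38 against -2.19) and Lama2 (-1.14 against -1.45), both of basement membranes, had no called gap. Col8a1 rose to a brown excess of 0.71 from -0.11 (gap 0.82) and Tnc to 0.27 from -0.16 (gap 0.43), while Col12a1 was brown in both (0.85 against 0.66). The brown excess of Tnc was 0.05 relative to the median gene and did not pass. Col3a1, Col8a1, Col12a1 and Tnc were chosen after their values were seen. Relative to the median gene 11 gaps passed upward and 3 downward, and without FXR BAT 1, 2 and 4 it was 14 and 1. Of all 19937 genes, 1872 had a called gap relative to the median gene, 13.1% of them upward.

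Some progenitor and macrophage genes narrowed too, 8 of each list. Of 21 adipose progenitor and fibroblast genes, 15 were higher in FXR WAT and 2 (Dlk1 and F3, 0.41 and 0.63, named after their values were seen) in FXR BAT, or 8 and 9 relative to the median gene. After quantile normalization, 34% of all genes were called higher in FXR WAT and 21.4% in FXR BAT. Gaps passed upward for 8 and downward for 0 in both scalings, and upward for 5 without FXR BAT 1, 2 and 4. After quantile normalization 1.75% of all genes had an upward and 2.64% a downward call. Pdgfra, the receptor that marks these cells, read 9.04, 9.03, 9.16, 8.75 and 9.05 in FXR BAT and 9.94, 10.14, 10.00 and 10.09 in FXR WAT. The difference was -1.04 ± 0.08 against -2.03, with a gap of 0.99 (adjusted p = 0.000257, limma). Cd34, a surface sialomucin, went from -1.60 to -0.64 (adjusted p = 0.00166, limma), or to 0.01 relative to the median gene. Cd248 (-1.51 against -1.49), Dpp4 (-1.34 against -1.72) and Tcf21 (-1.25 against -1.13) had no called gap.

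Of 27 macrophage genes, 26 were higher in FXR WAT (34% of all genes), and Ms4a7 (0.08) did not pass. Their median was -1.14 against -1.47, and gaps passed upward for 8 members and downward for 1, the lipid receptor Trem2 (-0.28), beside 1.75% and 2.64% of all genes. Csf1r, the receptor of the macrophage growth factor, read 8.15, 8.26, 7.99, 8.05 and 8.00 in FXR BAT and 9.68, 9.62, 9.80 and 9.88 in FXR WAT. All 5 FXR BAT arrays exceeded control BAT (6.97 to 7.39), and the gap was 0.75 (adjusted p = 0.00139, limma). Lysozyme, Lyz2, went from -2.42 to -1.22 (gap 1.20, adjusted p = 0.0139, limma), complement C1qb from -2.30 to -1.52 (adjusted p = 0.013) and Adgre1, a macrophage surface receptor, from -1.49 to -1.21 without a call. C1qc had a gap of 0.55 (adjusted p = 0.049, limma), which missed in 14 of 18 fits that left out 1 array, without FXR BAT 1, 2 and 4 (0.41, adjusted p = 0.178) and relative to the median gene (0.48, adjusted p = 0.0536). Without FXR BAT 1, 2 and 4 only 2 upward gaps passed, with Lyz2 at 1.03 (adjusted p = 0.0554, limma) and C1qb at 0.62 (adjusted p = 0.0532). In that fit 26 members were still higher in FXR WAT. It keeps only FXR BAT 3 and 5, so an effect of the arrays left out and a loss of precision cannot be told apart. Lyz2, Ms4a7 and Trem2 were named after their values were seen. Of 19 lymphocyte genes, 9 were white (34% of all genes), with called upward gaps for Cd2 and Klrb1c. At the floor were 14 of the 19 on all FXR WAT arrays and 7 on all FXR BAT arrays.

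**Figure D4:**
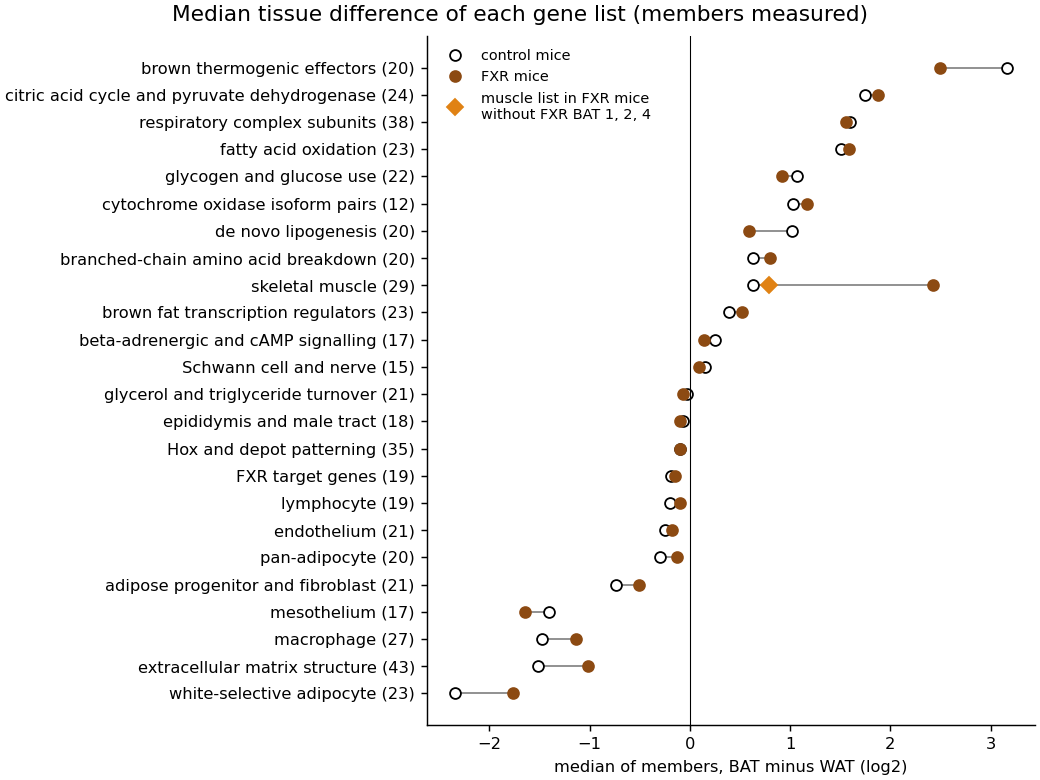
Median BAT minus WAT difference (log2 units) over the measured members of 24 gene lists in control mice (open circles) and FXR mice (filled circles), with the number of measured members in brackets. The thermogenic list moved from 3.16 to 2.49 and the matrix list from -1.52 to -1.02, both toward 0, and the mesothelium list from -1.41 to -1.65. The muscle list read 2.43 with all FXR BAT arrays and 0.79 without FXR BAT 1, 2 and 4 (diamond), beside 0.62 in controls.

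Mesothelium, vessels and positional genes showed few or 0 called gaps, beside 4.38% of all genes. Skeletal muscle genes also had 0 called gaps, but their median gap was 1.60. Their array means spread from 6.66 to 10.12 in FXR BAT and from 6.59 to 8.08 in control BAT. All 17 measured mesothelial genes were higher in FXR WAT (34% of all genes), with a median of -1.65 against -1.41 and 0 called gaps (limma). Msln, the gene of mesothelin, was -2.36 against -1.98, and Upk1b, a plaque protein, -3.10 against -2.87. Of 29 muscle genes, 27 were called higher in FXR BAT (21.4% of all genes), but only 15 without FXR BAT 1, 2 and 4. Myl1, a fast myosin light chain, read 10.47, 9.95, 8.91, 10.50 and 9.11 in FXR BAT and 6.56 to 6.93 in FXR WAT, a difference of 3.05 that was 2.27 without these arrays. Myh4, a fast myosin heavy chain, went from 3.58 to 1.83 when they were left out. Acta1 (2.21) and Actn3 (1.17), named after their values were seen, did not pass. Of 21 endothelial genes, 3 (Pecam1, Tek and Emcn) were brown and 7 white, close to or under the 21.4% and 34% of all genes, or 11 and 3 relative to the median gene. Emcn was at 0.43, and the calls of Pecam1 (0.40) and Tek (0.31) were lost in 5 and 3 of 9 fits that left out 1 array, and that of Pecam1 also without FXR BAT 1, 2 and 4 (adjusted p = 0.0662, limma); all of these were named after their values were seen. Plvap, of fenestrated vessels (-0.99), and Lyve1, of lymphatic vessels and some macrophages (-1.10), were white. Of 35 homeobox and patterning genes, 17 were white and 5 (Hoxa4, Hoxa5, En1, Tbx5 and Tbx15) brown, beside 34% and 21.4% of all genes. Gata6, of visceral fat lineages, was -1.43 against -1.67. Tbx5 narrowed from 0.48 to 0.14 (adjusted p = 0.00422, limma) and was on the white side relative to the median gene (-0.16); its difference in FXR mice was lost in 3 of 9 fits that left out 1 array and without FXR BAT 1, 2 and 4 (0.09, adjusted p = 0.322, limma). Schwann cell genes were split, 5 brown and 3 white of 15, beside the same shares of all genes, with S100b at 1.76 against 1.73. The 18 epididymis and male tract genes had 3 white calls (Rnase10, Eppin and Svs4), under the 34% of all genes, with 13 at the floor on all FXR arrays of each tissue.

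Classical FXR targets had 1 called gap among 19, near the 4.38% of all genes. Of the 19, 4 (Slc51b, Abcb4, Vldlr and Ppara) were higher in FXR BAT and 10 in FXR WAT, against 3 and 10 in controls, with medians of -0.15 and -0.19. The shares of all genes were 21.4% and 34% in FXR mice and 23.7% and 34.3% in controls. Ppara, a nuclear receptor of fatty acid use, was 2.80 against 3.03, and Pltp, a phospholipid transfer protein, -2.03 against -2.09. Vldlr, a lipoprotein receptor, had that gap and narrowed from 1.02 to 0.44 (gap -0.58, adjusted p = 0.00473, limma). On all FXR WAT arrays 11 of the 19 were at the floor, and on all FXR BAT arrays 5, so changes of these were compressed.

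Widening was rarer than narrowing. A difference was counted as widened where the FXR difference and the gap both passed with the same sign and the FXR difference was the larger. This held for 270 genes (1.35%), 68 toward BAT and 202 toward WAT, and 20 of the genes also met the rule for narrowing, with a sign that turned. With an FXR difference of at least 2-fold there were 16 toward BAT and 44 toward WAT. Only 4 of the latter had the larger genotype change in BAT, a count not taken over all genes. On the brown side Fam13a, a regulator of adipocyte insulin signalling, read 9.65, 10.31, 10.78, 10.17 and 10.60 in FXR BAT and 7.23, 8.31, 8.58 and 7.96 in FXR WAT. The tissues were separate, and the 4 white arrays lay below all control WAT arrays (9.62 to 10.30). The difference was 2.28 ± 0.29 against 0.31, a gap of 1.97 (adjusted p = 0.00436, limma) that lay in WAT (-1.88).

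Thbs4 and Aspn were next on the brown side, and Grb14 (gap 1.21), Nox4 and Depp1 came after them. Thbs4, a thrombospondin of muscle and tendon, read 7.58, 7.63, 8.01, 8.42 and 8.13 in FXR BAT and 6.10, 6.07, 6.16 and 6.12 in FXR WAT. It was high on FXR BAT 3 and 5 as well as on the arrays with muscle RNA, and the gap was 1.52 (adjusted p = 0.00011, limma), or 1.63 without FXR BAT 1, 2 and 4. Aspn, the proteoglycan asporin, read 9.13, 8.80, 9.46, 9.53 and 9.26 in FXR BAT and 6.70 to 7.37 in FXR WAT, with a difference of 2.23 against 0.75 (gap 1.48, adjusted p = 0.0013, limma). Nox4, an oxidase that makes hydrogen peroxide, read 7.47, 7.46, 7.55, 7.56 and 7.63 in FXR BAT and 6.24, 6.33, 6.27 and 6.40 in FXR WAT. The 5 brown arrays were close together and above all others, and a difference of 1.22 ± 0.05 stood against 0.04 in controls, where all 9 arrays read 6.01 to 6.38 (gap 1.18, adjusted p = 2.48e-06, limma). The adaptor Grb14, an inhibitor of insulin receptor signalling, widened from 0.33 to 1.54 with changes of 0.57 in BAT and -0.64 in WAT. Depp1 had a gap of 1.18, with its call lost in 12 of 18 fits that left out 1 array and relative to the median gene (0.93, adjusted p = 0.128, limma).

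On the white side, Slc5a7, a choline transporter of cholinergic nerves, read 6.51, 6.11, 6.03, 6.11 and 6.06 in FXR BAT and 8.19, 8.10, 8.01 and 7.01 in FXR WAT. FXR WAT 4 was lower than the other white arrays, and control arrays of both tissues were at 5.92 to 6.17. The difference was -1.66 ± 0.22 against -0.05 (gap -1.62, adjusted p = 0.00112, limma). Mtarc1, a mitochondrial reductase linked to liver fat, was -1.47 against 0.10 (gap -1.57, adjusted p = 0.00612, limma). Oxtr, the oxytocin receptor, read 9.85, 8.92, 9.11 and 9.00 in FXR WAT and 6.16 to 6.47 in FXR BAT. It was already white in controls, and the difference went from -1.63 to -2.92 (gap -1.29, adjusted p = 0.00125, limma). Peg10, an imprinted gene of retrotransposon origin, went from -0.64 to -2.00 (gap -1.36, adjusted p = 0.0013, limma). The gaps of Sfrp5, a secreted Wnt inhibitor (-1.48), and Orm1, an acute phase protein (-1.32), lost their calls in 16 and 12 of 18 fits that left out 1 array, and that of Sfrp5 also without FXR BAT 1, 2 and 4 (-1.60, adjusted p = 0.0905, limma). The difference of Orm1 in FXR mice, -1.14, was -0.48 relative to the median gene and did not pass (adjusted p = 0.131, limma). Pcsk6, a proprotein convertase named after its value was seen, went the other way, from -0.54 in controls to 0.47 in FXR mice (gap 1.02, adjusted p = 0.00173, limma).

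**Figure D5:**
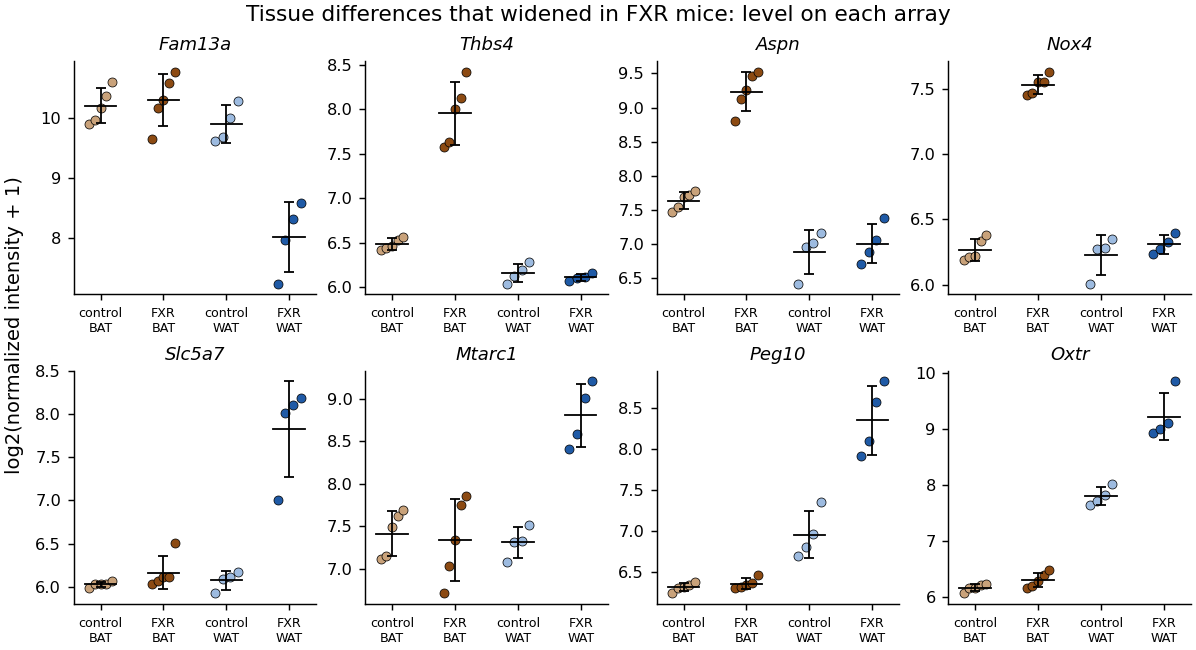
Levels on each array (points), group means (lines) and SD (error bars) of 8 widened genes, as log2(normalized intensity + 1); each panel has its own y axis, which does not start at 0. Thbs4, Aspn and Nox4 were higher in FXR BAT than in the other 3 groups, Fam13a was lower in FXR WAT than in the other groups, and Slc5a7, Mtarc1, Peg10 and Oxtr were highest in FXR WAT.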

How the data were processed

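Expression was measured in 18 adipose samples, 1 array each; the authors deposited a table of linear intensity values by probe set. Their summarisation and normalization: not given in the sources used here. Precision is limited by how many arrays there were. Among 34760 probe sets, 21640 had 1 gene symbol in the platform annotation, 1321 several and 11799 none; the brightest probe set per gene was kept (19937 genes, 954 with a choice; IDs of 19854 found in the reference gene table). The deposited intensity was quantile normalized over 18 arrays and log2(intensity + 1) taken; the alternative subtracts each array's median gene. Limma 3.58.1 in R 4.3.3 (lmFit, eBayes, two-sided, Benjamini-Hochberg over all genes, threshold 0.05) compared FXR BAT with FXR WAT (9 arrays), control BAT with control WAT (9 arrays), and both differences (18 arrays, 4 group means); the steps were tested on simulated data. The members and the 24 gene lists were chosen with earlier results of these data known. Lists have no test. Named genes were the label checks (Ucp1, Nr1h4, Nr0b2, Lep, Adipoq, Cox7a1, Cox7a2, Cox8b, Cox8a), the 8 largest differences per direction, the 8 most narrowed and 6 most widened per direction, up to 3 members per list by adjusted p and up to 2 by gap, and the 4 steadiest per direction, leaving out predicted genes, receptors of smell and taste and small RNAs. Not every gene of the rule is printed. Genes outside it are marked in the text, and list members named only as exceptions to a count were named after values were seen. Alternatives were median gene scaling, deposited values, quantile normalization within genotype, a pseudocount of 32, a filter on dim genes, the mean of probe sets, an intensity trend, 1 fit of all arrays, a replicate block, and leaving out arrays.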

Additional observations from a re-analysis of the deposited data

Results flagged for a closer look

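In 292 groups of the named genes, FXR BAT or FXR WAT, 16 single arrays lay far from the rest of their group by Dixon's criterion, and chance alone flags about 1 in 20 groups, or 14.6 here. FXR WAT 4 held 7 of them. On FXR BAT 1 the log2 level that stood apart was that of Pdp1 at 7.85 (others 7.35 to 7.44) and Slc5a7 at 6.51 (others 6.03 to 6.11). On FXR BAT 2 the log2 level that stood apart was that of Lyve1 at 8.25 (others 7.79 to 7.90). On FXR BAT 3 the log2 level that stood apart was that of Paqr9 at 7.84 (others 8.48 to 8.55) and Pltp at 8.52 (others 8.98 to 9.06). On FXR WAT 1 the log2 level that stood apart was that of Lama2 at 8.78 (others 8.95 to 8.98) and Tcf21 at 7.60 (others 7.26 to 7.28). On FXR WAT 3 the log2 level that stood apart was that of Emcn at 7.44 (others 7.37 to 7.38) and Sdhb at 8.76 (others 8.65 to 8.67). On FXR WAT 4 the log2 level that stood apart was that of Acsl5 at 8.19 (others 8.03 to 8.04), Col14a1 at 9.72 (others 8.66 to 8.83), Hoxc8 at 9.66 (others 9.99 to 10.04), Igf1 at 9.84 (others 9.63 to 9.66), Pde7b at 7.32 (others 7.15 to 7.17), Serpina3n at 12.11 (others 11.18 to 11.25) and Slc5a7 at 7.01 (others 8.01 to 8.19). The cause was not tested.

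The difference between BAT and WAT itself differed between FXR and control mice for 66 of the named genes (limma over 18 arrays, adjusted p below the threshold). The log2 gaps downward, toward less RNA in BAT relative to WAT were those of Gys2 (-2.74), Elovl3 (-2.44), Paqr9 (-1.97), Dio2 (-1.93), Slc5a7 (-1.62), Mtarc1 (-1.57), Sfrp5 (-1.48), Elovl6 (-1.40) and Peg10 (-1.36). Further genes with a gap in that direction were Orm1 (-1.32), Oxtr (-1.29), Septin9 (-1.19), Acsl5 (-1.18), Pde7b (-0.99), Otop1 (-0.97), Insig1 (-0.96), Mest (-0.92) and Adcy3 (-0.87). They also included Gpd1 (-0.77), Ppp1r3b (-0.76), Kcnk3 (-0.74), Letm1 (-0.61), Vldlr (-0.58), Dgat2 (-0.56), Ppargc1a (-0.55), Ucp1 (-0.54) and Agpat3 (-0.53). They also included Mcee (-0.49), Cox7a1 (-0.48), Prdm16 (-0.43), Pde4d (-0.41), Tbx5 (-0.34) and Trem2 (-0.28). The log2 gaps upward, toward more RNA in BAT relative to WAT were those of Thbs2 (2.36), Fam13a (1.97), Ogn (1.67), Thbs4 (1.52), Aspn (1.48), Ccdc80 (1.41), Dpt (1.38), Serping1 (1.37) and Col14a1 (1.34). Further genes with a gap in that direction were Plxdc2 (1.27), Mfap5 (1.24), Col3a1 (1.24), Fn1 (1.21), Grb14 (1.21), Lyz2 (1.20), Nox4 (1.18), Depp1 (1.18) and Pcsk6 (1.02). They also included Pdgfra (0.99), Cd34 (0.96), Lgals12 (0.83), Col8a1 (0.82), Igf1 (0.79), C1qb (0.79), Pygb (0.75), Csf1r (0.75) and Aldh6a1 (0.60). They also included C1qc (0.55), Agt (0.48), Tnc (0.43), Uqcrc2 (0.41), Etfb (0.41) and Atp5c1 (0.34). These genes were chosen in part for a large gap, and most of the gaps are described above.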

How the results depend on the processing

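Scaling moved the results most. By median gene scaling 6397 genes were higher in FXR BAT, 1872 gaps passed, and 1593 genes narrowed and 14779 persisted. As deposited, 19225 genes differed in FXR mice (18966 toward BAT, 259 toward WAT) and 19292 in control mice, 975 narrowed and 18818 persisted. Without control BAT 2 and 4, 469 gaps passed, and 350 genes narrowed and 125 widened. Leaving out 1 array at a time gave 10077 to 10871 called genes in FXR mice (3892 to 4134 toward BAT, 6185 to 6737 toward WAT), 10845 to 11537 in control mice, 599 to 909 gaps, 423 to 642 narrowed, 184 to 302 widened and 8593 to 9021 persisting genes. Without FXR BAT 1, 2 and 4, FXR mice had 8068 calls, with 753 gaps. Deviations of same-numbered BAT and WAT samples correlated at 0.120, 0.061, 0.104 and 0.054 in FXR mice and at 0.179, 0.150, 0.142 and -0.076 in control mice. The same number was the best match in 6 of 8 cases, a hint of pairing from the data, and 3 of the 8 correlations were below 0.1. Low correlations do not exclude a pairing. The labels do not state one, so the main fits treat the samples as unpaired. With the replicate number as a block, 9816 genes differed in FXR mice, 639 gaps passed and 477 genes narrowed.

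Of 136 named genes called in FXR mice, 99 kept call and direction in every setting, and of 66 named genes with a called gap, 39 did, with 0 reversed gaps. Among named genes whose FXR tissue difference passed before or after the change of scaling, it turned its sign by median gene scaling for Adipoq (0.40), Cd34 (0.0096), Dgat2 (0.041), Dpt (0.33), Insig1 (0.48), Ogn (0.27), Plxdc2 (0.30), Septin9 (0.55), Serping1 (0.20) and Tbx5 (-0.16); Thbs2 (0.20), Col14a1 (0.37) and Ms4a7 (-0.11) turned without passing in either. As deposited it turned for Adgre1 (0.045), Adipoq (1.13), Atp5g1 (0.69), Cd34 (0.74), Ckmt1 (0.33), Col14a1 (1.10), Col3a1 (0.20), Dgat2 (0.77), Dpt (1.06), Insig1 (1.21), Lama2 (0.18), Lgals12 (0.64), Lyve1 (0.24), Lyz2 (0.18), Mfap5 (0.49), Mgll (0.14), Nr0b2 (0.37), Nr1h4 (0.30), Ogn (1.00), Orm1 (0.25), Paqr9 (0.47), Pcx (0.70), Pdgfra (0.35), Pdp1 (0.64), Plvap (0.058), Plxdc2 (1.03), Pygb (0.024), Septin9 (1.27), Serping1 (0.93), Thbs2 (0.93) and Trem2 (0.57). Dimness in WAT limits the size of differences there.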
